A study of Mus musculus with 10 samples.

Results

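The genes described here encode the antigen receptor of T cells and the chains that work with it. They are the constant parts of the T cell receptor (Trac, Trbc1 and Trbc2), the CD3 chains (Cd3d, Cd3e and Cd3g) and the coreceptors (Cd4, Cd8a and Cd8b1). The genes were chosen by name, and all 9 had a row among the 14623 genes of the count table. The table came from the stromal vascular fraction of inguinal white adipose tissue (iWAT SVF), which is the mixture of cells left after fat is digested with collagenase and DNase and the red blood cells are lysed. The Bbs8 KO group was 1 mouse without Bbs8 in any cell (Bbs8-/-), the Bbs8 WT group was 1 mouse with both copies (Bbs8+/+), and both were lean and 7 weeks old. Neither mouse carried any treatment that the labels name, and the strain was not given in the sources used here. BBS8 is a subunit of the BBSome, a protein complex that carries cargo to and from primary cilia. RNA of single cells was captured by Seq-Well S3: barcoded beads bind polyadenylated RNA in small wells, and each bound molecule is counted once by its unique molecular identifier (UMI).

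The table held 8985 Bbs8 KO cells with 3144195 UMIs and 1929 Bbs8 WT cells with 715989 UMIs. The median depth was 251 and 278 UMIs per cell. Each genotype was split over 5 barcode sets, which are groups of cells that share a code in the column names. What the codes stand for, and whether they mark animals, is not given in the sources used here. The labels name parts p1 and p2 with 2 and 3 replicates in Bbs8 KO and with 3 and 2 in Bbs8 WT, and the codes KO5, KO6, WT3 and WT4 have the same numbers of sets. The series' design text names 1 mouse per genotype, so no test between genotypes was possible. Every interval below is an exact 95% interval that covers counting error only. It treats each UMI or cell as an independent draw, although UMIs of 1 cell are not independent. The sets are named KO5_p2, KO5_p3, KO6_p1, KO6_p2 and KO6_p3 for Bbs8 KO and WT3_p1, WT3_p2, WT3_p3, WT4_p2 and WT4_p3 for Bbs8 WT, and values by set are given in this order throughout. 3 of the Bbs8 WT sets were small, with 196 to 332 cells, and held 78 UMIs of the 9 genes together. Levels are in CPM, counts of UMIs scaled to the same total for every group of cells.

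A T cell recognises antigen through a receptor made of an alpha and a beta chain. Each chain has a variable part that binds the antigen and a constant part, and in the beta chain the constant part comes from either Trbc1 or Trbc2. The receptor chains have almost no tail inside the cell, and the CD3 chains that surround them carry the signal inward. CD4 binds MHC class II and marks helper and regulatory T cells, while CD8, a pair made from Cd8a and Cd8b1, binds MHC class I and marks cytotoxic T cells. In adipose tissue, T cells are resident or recirculating members of the SVF, and the inguinal fat pad also encloses a lymph node. The protocol in the labels does not say whether that node was taken out.

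The genes lie in the mouse genome as follows (GRCm38, GENCODE vM21). Trac is on chromosome 14 from 54220521 to 54224206 on the plus strand. Trbc1 (chromosome 6, 41538218 to 41539881) and Trbc2 (chromosome 6, 41546730 to 41548352) follow each other on the plus strand with 6848 bases between them. On chromosome 9, Cd3g (44969572 to 44980431, minus strand), Cd3d (44981786 to 44987339, plus strand) and Cd3e (44998740 to 45009627, minus strand) form a cluster, in which 1354 bases separate Cd3g from Cd3d. Cd8b1 (chromosome 6, 71322788 to 71337494) and Cd8a (chromosome 6, 71373427 to 71379173) are neighbours on the plus strand with 35932 bases between them. Cd4 is apart from them on chromosome 6, from 124864692 to 124888221 on the minus strand.

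Trbc1 and Trbc2 are shown because reads can be split between them. Over 521 coding bases the GENCODE transcripts differed at 23 bases, which is 95.6% identity. Exons 1 and 2 held 4 of these differences in 393 bases, and the last 128 coding bases, from exons 3 and 4, held 19 of them. The last 128 coding bases are printed 5′ to 3′ with the bases that differ in capitals (GRCm38, plus strand, chr6:41539229-41539335 and chr6:41539645-41539665 for Trbc1, chr6:41547772-41547878 and chr6:41548161-41548181 for Trbc2).
Trbc1: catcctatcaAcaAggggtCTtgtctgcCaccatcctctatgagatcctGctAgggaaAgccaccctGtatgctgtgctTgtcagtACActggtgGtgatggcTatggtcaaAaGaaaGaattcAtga
Trbc2: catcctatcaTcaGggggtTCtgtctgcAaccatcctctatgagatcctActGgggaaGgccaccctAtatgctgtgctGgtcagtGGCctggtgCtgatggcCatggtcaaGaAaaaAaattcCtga
Of all stretches of 61 bases, the length of the sequenced read, 261 of 461 (56.6%) in the coding part occurred in both transcripts. After the coding part, 0 of 156 stretches of Trbc1 occurred in Trbc2 and 0 of 111 stretches of Trbc2 occurred in Trbc1. Seq-Well reads start from the polyA end of the transcript, and where along the transcripts these reads lay is not known from a count table, so the split of UMIs between Trbc1 and Trbc2 is uncertain. How reads that match both genes were counted is not given in the sources used here, and their sum may have lost UMIs as well.

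The 250 bases before the start of the CD3 genes are shown because the 3 genes share 1 cluster and their levels are compared with each other below (RefSeq, GRCm38.p6). Capitals mark short motifs of factors known from lymphocytes, namely GGAAGT (ETS), CTTTGA (TCF and LEF) and CAGGTG (E protein), on either strand.
Cd3d: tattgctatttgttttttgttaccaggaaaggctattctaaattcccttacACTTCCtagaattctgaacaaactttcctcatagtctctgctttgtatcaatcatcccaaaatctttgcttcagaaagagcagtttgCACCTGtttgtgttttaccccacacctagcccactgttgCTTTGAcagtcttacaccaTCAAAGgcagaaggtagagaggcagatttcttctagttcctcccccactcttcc
Cd3g: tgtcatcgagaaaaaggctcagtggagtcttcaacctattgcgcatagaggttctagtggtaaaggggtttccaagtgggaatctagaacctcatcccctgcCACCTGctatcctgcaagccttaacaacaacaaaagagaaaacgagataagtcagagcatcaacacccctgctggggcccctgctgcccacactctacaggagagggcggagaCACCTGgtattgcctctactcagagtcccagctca
Cd3e: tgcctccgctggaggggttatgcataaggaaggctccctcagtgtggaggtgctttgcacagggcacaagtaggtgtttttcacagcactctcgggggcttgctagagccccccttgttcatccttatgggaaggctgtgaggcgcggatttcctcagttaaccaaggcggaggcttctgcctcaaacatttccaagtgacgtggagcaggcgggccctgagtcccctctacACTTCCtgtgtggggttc
The windows are chr9:44981536-44981785 for Cd3d, chr9:44980432-44980681 for Cd3g and chr9:45009612-45009861 for Cd3e, the last 2 on the minus strand. They are counted from the RefSeq start, which for Cd3e lies inside the GENCODE gene (45009627 on the minus strand). The last bases of the Cd3e window therefore belong to the gene by GENCODE. The GC content was 41.2% for Cd3d, 51.6% for Cd3g and 57.2% for Cd3e, beside a median of 52.4% over all promoters of the table. The Cd3d window held a match to each of the 3 motifs, and the Cd3g window held 2 matches to CAGGTG. The Cd3e window held 1 match to GGAAGT, 18 bases before the RefSeq start and across the GENCODE start. The same letters are common, since GGAAGT was found in 19.7%, CTTTGA in 13.8% and CAGGTG in 17.2% of 32851 promoter windows of this length. The motifs TGTGGT (RUNX, 14% of windows) and TATAAA (12.4% of windows) had no match in these 3 windows, and the Cd8a window had no match to any of the motifs. Of the 9 genes, 4 had an entry in the promoter table.

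All 9 genes were higher in Bbs8 KO than in Bbs8 WT when all cells of the SVF were summed. Summed over the 9 genes, the level was 1990 CPM (1940 to 2040, 6250 UMIs) in Bbs8 KO against 616 CPM (560 to 676, 441 UMIs) in Bbs8 WT, which is a log2 difference of 1.68 (1.55 to 1.83). The Bbs8 KO sets had 2050, 2010, 1990, 1950 and 1960 CPM, and the Bbs8 WT sets had 262, 395, 145, 879 and 691 CPM. The Bbs8 KO sets lay close together and all of them were above all Bbs8 WT sets, among which the sets coded WT4 were higher than the sets coded WT3. For each of the 9 genes, every Bbs8 KO set was above every Bbs8 WT set, and each gene was at least 2-fold higher. Over all 14219 genes with a UMI, 11.6% had every Bbs8 KO set above every Bbs8 WT set, and 14.8% were at least 2-fold higher in Bbs8 KO. Among genes with at least 200 UMIs these were 14.7% and 8.28%. The median log2 difference of all genes was 0.25, and 0.10 at 200 UMIs or more. Scaling by edgeR TMM or DESeq2 factors in place of total UMIs shifted every gene by -0.15 or -0.17, and all 9 genes were still higher in Bbs8 KO.

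**Figure D1:**
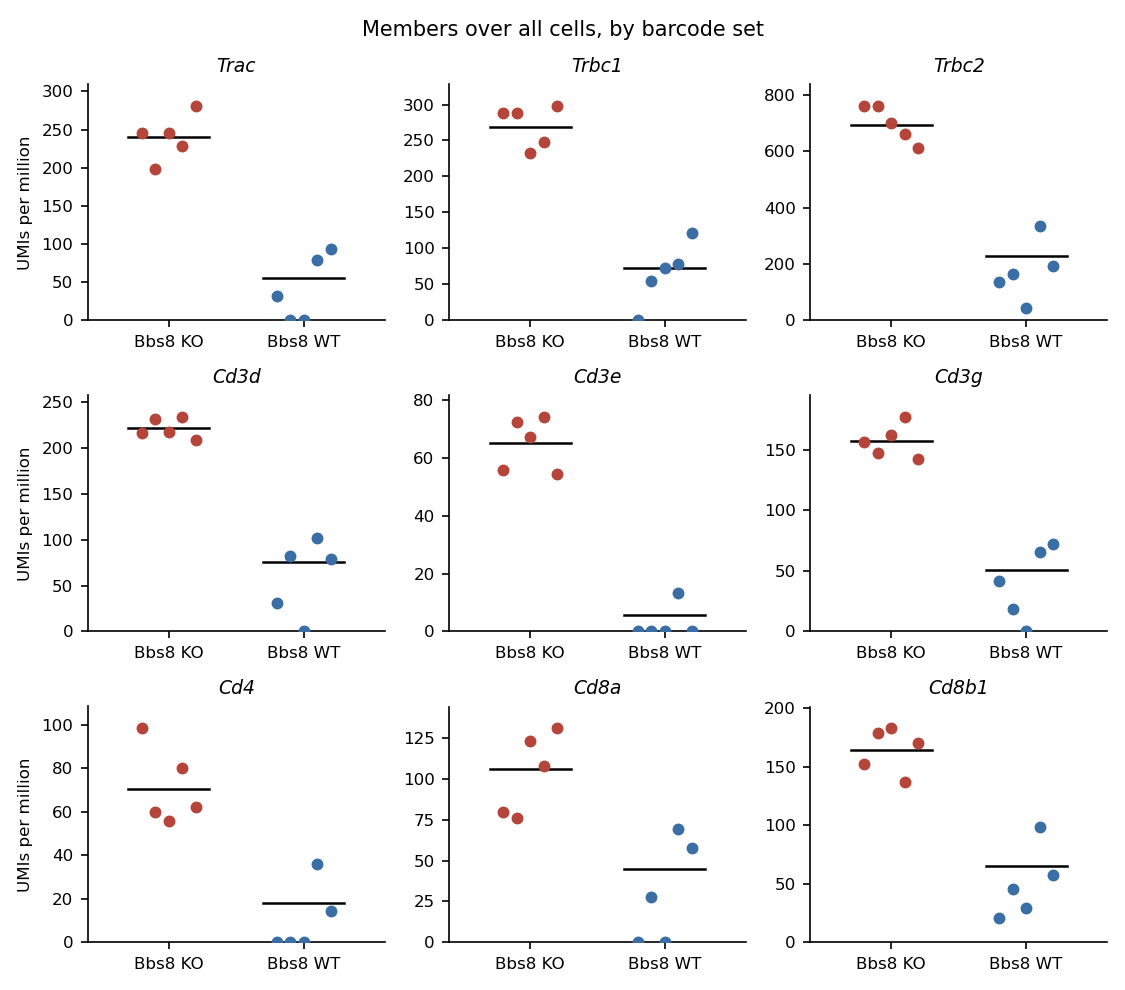
Level of each gene over all cells in CPM, with 1 point per barcode set, 5 sets per genotype (Bbs8 KO in red, Bbs8 WT in blue), and a line at the level of all cells of the genotype. In every panel the 5 Bbs8 KO sets sit above the 5 Bbs8 WT sets, and the Cd3e panel has a single Bbs8 WT set above 0, at 13.2 CPM.

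The constant chains of the receptor supplied 3783 of the 6250 UMIs in Bbs8 KO against 255 of the 441 in Bbs8 WT, with a log2 difference of 1.74 (1.57 to 1.94). Trac, the only constant gene of the alpha chain, had 245, 198, 246, 228 and 281 CPM in the Bbs8 KO sets and 31.4, 0, 0, 79.0 and 93.6 CPM in the Bbs8 WT sets. Its log2 difference was 2.01 (1.65 to 2.60). The sets WT3_p2 and WT3_p3 had no Trac UMI, which allows up to 27.6 and 43.5 CPM. Trbc1 had 288, 288, 232, 248 and 298 CPM in the Bbs8 KO sets and 0, 55.1, 72.5, 79.0 and 122 CPM in the Bbs8 WT sets, with a log2 difference of 1.82 (1.48 to 2.32). Trbc2 had 760, 759, 700, 660 and 612 CPM in the Bbs8 KO sets and 136, 165, 43.5, 336 and 194 CPM in the Bbs8 WT sets, with a log2 difference of 1.59 (1.38 to 1.85). The intervals of the 3 chains overlapped.

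The CD3 chains together had a log2 difference of 1.72 (1.46 to 2.08), and Cd3e had the largest difference of the 9 genes. Cd3d had 216, 232, 218, 234 and 209 CPM in the Bbs8 KO sets and 31.4, 82.7, 0, 102 and 79.2 CPM in the Bbs8 WT sets, a log2 difference of 1.5 (1.15 to 1.98). Cd3g had 156, 147, 162, 177 and 142 CPM in the Bbs8 KO sets and 41.8, 18.4, 0, 65.8 and 72.0 CPM in the Bbs8 WT sets, a log2 difference of 1.56 (1.16 to 2.18). WT3_p3 was the set without any CD3 UMI. Cd3e, the chain that pairs with both of the others in the complex, had 55.7, 72.5, 67.3, 74.2 and 54.6 CPM in the Bbs8 KO sets, from 205 UMIs. Bbs8 WT had 4 Cd3e UMIs, all in WT4_p2 at 13.2 CPM, and the log2 difference was 2.73 (2.17 to 5.43). The ratio of Cd3e to Cd3d UMIs was 0.294 in Bbs8 KO against 0.0741 in Bbs8 WT, which is 3.97 times as high (1.44 to 15.3) and rests on those 4 UMIs. The ratio of Cd3g to Cd3d was 0.71 in Bbs8 KO against 0.667 in Bbs8 WT, with a ratio between the mice of 1.07 (0.674 to 1.70).

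The coreceptors together had 340 CPM in Bbs8 KO against 128 CPM in Bbs8 WT, a log2 difference of 1.37 (1.1 to 1.73). Cd4 had 98.5, 60.1, 55.8, 79.9 and 62.4 CPM in the Bbs8 KO sets and 0, 0, 0, 36.2 and 14.4 CPM in the Bbs8 WT sets, and its log2 difference was 1.71 (1.16 to 2.89). All 13 Cd4 UMIs of Bbs8 WT lay in the sets coded WT4. Cd8a had 79.9, 76.1, 123, 108 and 131 CPM in the Bbs8 KO sets and 0, 27.6, 0, 69.1 and 57.6 CPM in the Bbs8 WT sets, a log2 difference of 1.15 (0.71 to 1.81). Cd8b1 had 152, 179, 183, 137 and 170 CPM in the Bbs8 KO sets and 20.9, 46.0, 29.0, 98.8 and 57.6 CPM in the Bbs8 WT sets, a log2 difference of 1.26 (0.89 to 1.79). Cd8a and Cd8b1 had the smallest differences of the 9 genes, but their intervals overlapped those of all the others except Cd3e. In summed RNA, more T cells and more RNA of these genes per T cell cannot be told apart, and the cells were therefore divided into classes.

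Cells were clustered without the 9 genes, and a cluster was named from marker genes that do not include them. 1 cluster was T cell-like, with Il7r, Lef1, Tcf7, Bcl11b, Cd5, Lat, Cd247, Prkcq, Ms4a4b and Lck as its leading genes, and 7 of these 10 were T cell markers. The classes expected of an SVF were found as well, with stromal-like cells at 21.5% and 36.1% and endothelial-like cells at 7.71% and 10.8% of all cells in Bbs8 KO and Bbs8 WT. The T cell-like cluster held 1096 Bbs8 KO cells, which is 12.2% (11.5 to 12.9), and 124 Bbs8 WT cells, which is 6.43% (5.37 to 7.62). The share by set was 13.8, 12.4, 7.78, 13.5 and 14.2% in Bbs8 KO and 1.42, 3.61, 3.57, 9.11 and 8.81% in Bbs8 WT. The groups overlapped, because KO6_p1 lay below both WT4 sets. In this clustering, KO6_p1 supplied 96.6% of an unnamed cluster of 924 cells with a median of 194 UMIs. Other sets led such clusters with the 9 genes kept, at 98.8% (KO5_p2), 93.2% (KO5_p3) and 89.1% (KO6_p2). Without integration, no cluster of at least 60 cells drew more than 27.8% from 1 set. The cluster led by KO6_p1 had a mean log2 fold of 0.462 for the T cell markers and 0.41 for the B cell markers. Both were under the 0.5 needed for a name. It held 506 UMIs of the 9 genes in Bbs8 KO (2720 CPM). With these cells counted as T cell-like, the shares were 22.1% and 7.98%, and with them left out of all cells, the Bbs8 KO share was 13.5%. Without the 3 sets coded WT3, the Bbs8 WT share was 9.02% (7.41 to 10.8).

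B cell-like cells moved with the T cell-like cells between the mice. They made up 12.6% of all cells in Bbs8 KO against 5.08% in Bbs8 WT, and their share by set was 14.6, 13.6, 7.03, 14.2 and 14.3% in Bbs8 KO and 4.98, 5.12, 3.06, 5.99 and 4.26% in Bbs8 WT. T cell-like cells were 49.3% (47.2 to 51.4) of T and B cell-like cells together in Bbs8 KO against 55.9% (49.1 to 62.5) in Bbs8 WT. The part of lymph node tissue in these values was not tested.

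T cell-like cells had the highest level of the 9 genes of any class in both mice. The summed level was 7510 CPM (7240 to 7800, 2856 UMIs) in Bbs8 KO against 5200 CPM (4430 to 6060, 163 UMIs) in Bbs8 WT. In Bbs8 KO, mitotic-like cells followed at 3210 CPM (2800 to 3680) and unnamed cells at 2070 CPM (1960 to 2180), and these 3 differed from each other beyond their intervals. Dendritic-like (1250), epithelial-like (1250), endothelial-like (1030), B cell-like (985), monocyte-like (939) and macrophage-like cells (897 CPM) came next, and neighbours in this order did not differ beyond their intervals. Stromal-like cells, at 698 CPM (642 to 758), were below macrophage-like cells, and pericyte-like cells had 581 CPM (355 to 898), which was not apart from stromal-like cells. In Bbs8 WT, mitotic-like cells had 2010 CPM (1480 to 2650) and B cell-like cells 1450 CPM (1040 to 1970), and these did not differ beyond their intervals. Unnamed cells had 727 CPM (559 to 931), and the other classes ranged from 549 CPM in monocyte-like to 59.1 CPM in macrophage-like cells, where 3 UMIs were counted.

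**Figure D2:**
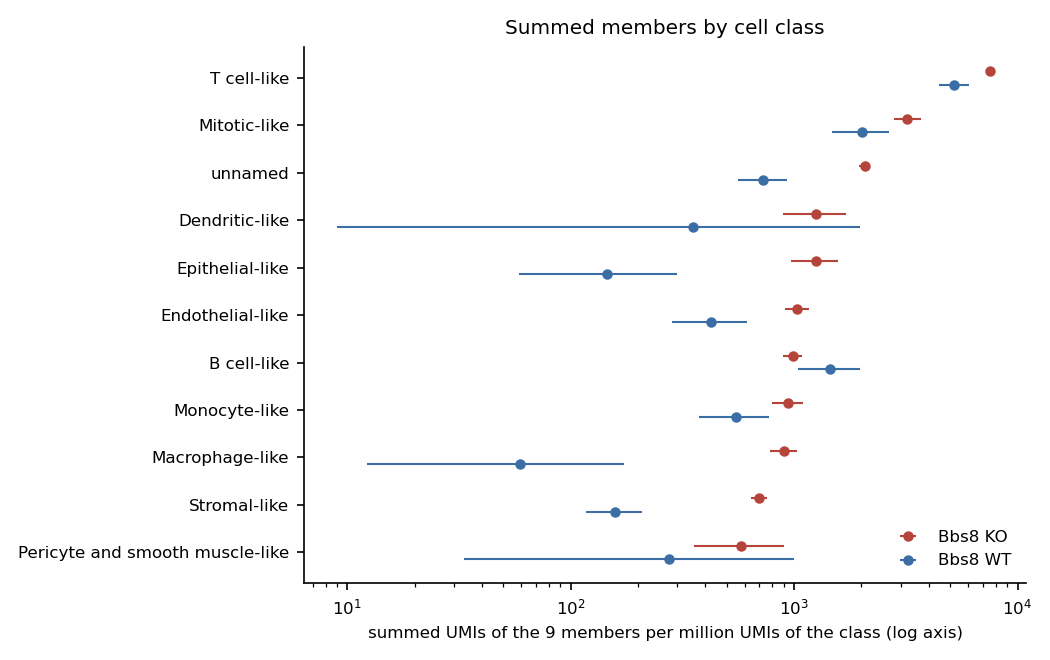
Summed level of the 9 genes in each cell class in CPM on a log axis, with exact Poisson 95% intervals, Bbs8 KO in red and Bbs8 WT in blue. T cell-like cells are at the top in both mice (7510 and 5200 CPM), and B cell-like cells are the class in which the Bbs8 WT point lies to the right of the Bbs8 KO point (1450 and 985 CPM).

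The Bbs8 KO level was above the Bbs8 WT level in stromal-like, endothelial-like, macrophage-like and epithelial-like cells too, which are not T cells. Stromal-like cells had 698 CPM in Bbs8 KO against 158 CPM in Bbs8 WT, a log2 difference of 2.11 (1.72 to 2.60), and endothelial-like cells had 1030 and 426 CPM, a log2 difference of 1.27 (0.71 to 1.89). In T cell-like cells the difference was 0.53 (0.30 to 0.77), which lay apart from that of stromal-like cells and overlapped that of endothelial-like cells. B cell-like cells had 985 CPM in Bbs8 KO against 1450 CPM in Bbs8 WT, a log2 difference of -0.56 (-1.03 to -0.06). Markers of other cells differed too. In stromal-like cells of Bbs8 KO and Bbs8 WT, T cell markers had 620 and 126 CPM, B cell markers 1520 and 542, and macrophage markers 653 and 184. In endothelial-like cells, T cell markers had 856 and 259 CPM and B cell markers 2040 and 609, while macrophage markers had 750 and 761. Their part in the differences was not tested. T cell-like cells held 45.7% (44.5 to 46.9) of the summed UMIs of the 9 genes in Bbs8 KO against 37.0% (32.4 to 41.7) in Bbs8 WT. By gene, this share ran from 39.6% for Cd4 to 48.3% for Cd8b1 in Bbs8 KO. In Bbs8 WT it ran from 15.4% for Cd4, with 2 of 13 UMIs, to 56.2% for Cd8a, with 18 of 32 UMIs.

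A UMI of these genes was found in T cell-like cells far more often than in cells that should lack the genes. At least 1 UMI of any of the 9 genes was present in 76.3% (73.6 to 78.8) of T cell-like cells of Bbs8 KO, at a median depth of 257 UMIs, and in 60.5% (51.3 to 69.1) of those of Bbs8 WT, at 228.5 UMIs. In stromal-like cells the shares were 20.2% (18.5 to 22.1) in Bbs8 KO against 4.73% (3.28 to 6.59) in Bbs8 WT, at median depths of 298 and 331 UMIs. The stromal-like shares were taken as the background of each mouse, and this background was higher in Bbs8 KO, the mouse with more UMIs of these genes overall. The part of free RNA in it was not tested. B cell-like cells of Bbs8 KO, at 16.9% (14.8 to 19.2), did not lie above this background. In Bbs8 WT, B cell-like cells had 18.4% (11.3 to 27.5), above the stromal-like share. After each cell was thinned to 200 UMIs, 71.4% (68.1 to 74.6) of 773 T cell-like cells of Bbs8 KO and 54.5% (43.6 to 65.2) of 88 of Bbs8 WT had a UMI, beside 13.5% and 2.91% of stromal-like cells, with 323 and 36 shallower T cell-like cells left out.

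Detection in T cell-like cells followed depth. The share of Bbs8 KO cells with any of the 9 genes was 54.8% in cells with 121 to 189 UMIs, 72.3% with 190 to 251, 80.6% with 252 to 397 and 95.3% with 398 to 1865. In Bbs8 WT it was 14 of 32, 30 of 50 and 23 of 34 cells in the first 3 of these ranges, and 8 of 8 cells in the deepest. The median T cell-like cell had 2 UMIs of the 9 genes in Bbs8 KO against 1 in Bbs8 WT, and the highest number was 26 and 6. At this depth, 301 of 1096 T cell-like cells of Bbs8 KO (27.5%) had both a constant chain and a CD3 chain, as had 13 of 124 of Bbs8 WT (10.5%).

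Within T cell-like cells the genotype difference was smaller than over all cells and differed from gene to gene. The summed level was higher in Bbs8 KO by 0.53 on the log2 scale (0.30 to 0.77), but the sets overlapped, with 7430, 7910, 7830, 6960 and 7580 CPM in Bbs8 KO against 0, 2850, 2660, 4950 and 7570 CPM in Bbs8 WT. The WT4_p3 value lay among those of Bbs8 KO, and the WT3 sets held 23 T cell-like cells in all. 2 of the 9 genes, Cd3e and Cd4, were at least 2-fold higher in Bbs8 KO, and the median over the 9 genes was 0.53. Over all 11549 genes with a UMI in T cell-like cells, 43.8% were at least 2-fold higher and the median was 0.61, but 0.61 is also the value that a gene with 1 UMI in Bbs8 KO and 0 in Bbs8 WT takes with a pseudocount of 5 CPM, so that genes with few UMIs weigh on both numbers. Among genes with at least 20 UMIs, 25.9% were at least 2-fold higher and the median was 0.26, and the median of the 175 genes with at least 200 UMIs was 0.15.

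**Figure D3:**
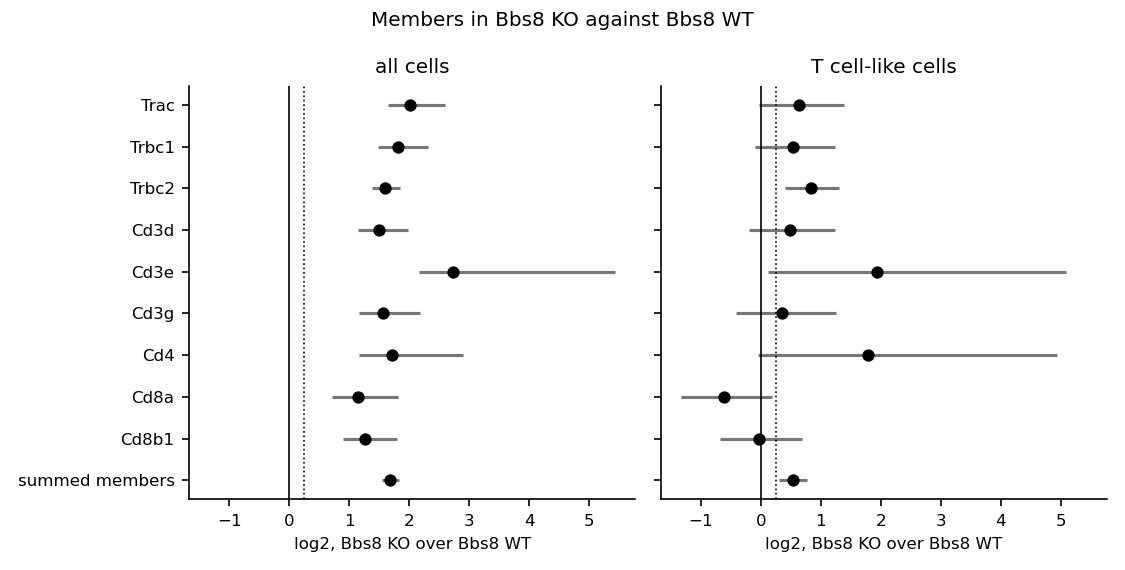
Difference of Bbs8 KO against Bbs8 WT on the log2 scale for each gene and for their sum, over all cells (left) and in T cell-like cells (right), with the exact 95% interval of the plain ratio as a bar, points computed with a pseudocount of 5 CPM, a full line at 0 and a dotted line at the median of genes with at least 20 UMIs (0.24 and 0.26). Over all cells every interval lies above 0, and in T cell-like cells the intervals of Trbc2, Cd3e and the sum lie above 0 and the Cd8a point is at -0.61.

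The constant chains together had a log2 difference of 0.72 (0.41 to 1.05) in T cell-like cells, and every Bbs8 KO set was above every Bbs8 WT set for Trbc2. It had 2860, 2960, 2760, 2380 and 2250 CPM in the Bbs8 KO sets and 0, 407, 1060, 1410 and 2160 CPM in the Bbs8 WT sets, with a log2 difference of 0.84 (0.41 to 1.30). The count of 0 in WT3_p1 allows up to 3220 CPM, above every Bbs8 KO value, so this order of the sets is not secure. Trac had 1020, 916, 806, 783 and 1170 CPM in the Bbs8 KO sets and 0, 0, 0, 619 and 961 CPM in the Bbs8 WT sets, with a log2 difference of 0.63 (-0.03 to 1.39). Trbc1 had 1160, 1190, 925, 737 and 1110 CPM in the Bbs8 KO sets and 0, 407, 1600, 563 and 961 CPM in the Bbs8 WT sets, with a log2 difference of 0.53 (-0.09 to 1.23). For both genes the sets overlapped, and the highest Trbc1 value, in WT3_p3, rests on 3 UMIs.

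The CD3 chains together had a log2 difference of 0.58 (0.10 to 1.12) in this class, and the sets overlapped for Cd3d and Cd3g. Cd3d had 701, 858, 955, 956 and 755 CPM in the Bbs8 KO sets and 0, 813, 0, 675 and 601 CPM in the Bbs8 WT sets, a log2 difference of 0.48 (-0.19 to 1.23). Cd3g had 553, 515, 552, 702 and 524 CPM in the Bbs8 KO sets and 0, 407, 0, 281 and 961 CPM in the Bbs8 WT sets, a log2 difference of 0.36 (-0.42 to 1.26), and WT4_p3 was the highest of all sets. Without WT4_p2 the Cd3g difference was -0.21, and with T cells called from marker UMIs in place of clusters the Cd3d difference was -0.21. Cd3e had 135, 343, 269, 299 and 244 CPM in the Bbs8 KO sets and 113 CPM in WT4_p2, where both Cd3e UMIs of the Bbs8 WT class lay, and its difference was 1.93 (0.12 to 5.08). Of all genes in this class, 12.9% had every Bbs8 KO set above every Bbs8 WT set, as had 3 of the 9 genes, Trbc2, Cd3e and Cd4. Counts of 0 in the WT3 sets allow 1220 to 3220 CPM, above every Bbs8 KO value of Cd3e and Cd4, so these orders rest on sets at the floor.

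The coreceptors together had a log2 difference of -0.05 (-0.51 to 0.44) in T cell-like cells, with Cd4 and Cd8a on opposite sides of 0. Cd4 had 256, 300, 149, 265 and 183 CPM in the Bbs8 KO sets and 0, 0, 0, 56.3 and 120 CPM in the Bbs8 WT sets, from 88 and 2 UMIs, and its log2 difference was 1.78 (-0.04 to 4.93). Cd8a had 229, 172, 567, 345 and 548 CPM in the Bbs8 KO sets and 0, 407, 0, 563 and 841 CPM in the Bbs8 WT sets, a log2 difference of -0.61 (-1.33 to 0.18). Cd8b1 had 512, 658, 850, 495 and 792 CPM in the Bbs8 KO sets and 0, 407, 0, 675 and 961 CPM in the Bbs8 WT sets, a log2 difference of -0.03 (-0.68 to 0.69). The Cd8 genes thus spread widely among the sets of both mice, and KO5_p2 and KO5_p3 had the lowest Cd8a of the Bbs8 KO sets. Scaling by edgeR or DESeq2 factors in place of total UMIs shifted all genes of this class by 0.38 and 0.35 on the log2 scale, which turned Cd8b1 (to 0.35 and 0.32) and the sum of the coreceptors to the Bbs8 KO side, while Cd8a stayed on the Bbs8 WT side. Cd8a was at 0.14 when only cells with at least 200 genes were kept.

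The T cell-like cells of the mice also differed in other markers, whose part in these differences was not tested. The 15 T cell markers summed to 7380 CPM in Bbs8 KO, with 7120 to 7620 by set, and to 4210 CPM in Bbs8 WT, with 0 to 5120 by set, and all 15 were detected in Bbs8 KO against 14 in Bbs8 WT. The 8 stromal markers summed to 1390 CPM in Bbs8 KO (1040 to 1660 by set) against 3600 CPM in Bbs8 WT (1070 to 7990 by set), and all 8 were detected in both. The 6 epithelial markers summed to 21.0 CPM in Bbs8 KO against 351 CPM in Bbs8 WT, from 8 and 11 UMIs with 2 and 5 of them detected, and every Bbs8 WT set (120 to 1600 CPM) was above every Bbs8 KO set (0 to 57.6 CPM). The 8 macrophage markers were at 184 CPM (138 to 229 by set, 7 detected) against 829 CPM (0 to 1130, 6 detected), and the 7 monocyte markers at 453 CPM (322 to 582, 7 detected) against 1050 CPM (407 to 3220, 6 detected). The mean share of mitochondrial UMIs per cell of the class was 9.02% in Bbs8 KO against 11.2% in Bbs8 WT. The 10 B cell markers summed to 1520 CPM in Bbs8 KO (1210 to 1700 by set, all detected) and to 542 CPM in Bbs8 WT (0 to 3220 by set, 7 detected), so that the sets overlapped and a Bbs8 WT set was the highest. Of the 6 natural killer markers, 3 were detected in Bbs8 KO at 81.6 CPM and 1 in Bbs8 WT at 95.7 CPM, and Ncr1 and Klrb1c, which define natural killer cells, had no UMI in T cell-like cells of either mouse.

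The ratio of Cd8a and Cd8b1 UMIs to Cd4 UMIs in T cell-like cells was lower in Bbs8 KO than in Bbs8 WT, where 2 Cd4 UMIs were counted. UMIs were not divided by transcript length and capture may differ between genes, so the ratio is not that of CD8 to CD4 cells and is compared only between samples and classes. The ratio was 4.44 (3.52 to 5.67) in Bbs8 KO, from 391 and 88 UMIs, against 19.5 (5.05 to 167) in Bbs8 WT, from 39 and 2 UMIs. The Bbs8 KO ratio was 0.228 times (0.0262 to 0.911) that of Bbs8 WT, an interval that left out 1 but rests on those 2 UMIs. By set, the ratio was 2.89, 2.76, 9.50, 3.17 and 7.33 in Bbs8 KO, and it was 22 (22 to 1 UMIs) in WT4_p2 and 15 (15 to 1 UMIs) in WT4_p3. The other 3 Bbs8 WT sets had no Cd4 UMI in this class. Both Bbs8 WT values were above all Bbs8 KO values, but the interval of WT4_p3 began at 2.31, below all 5 Bbs8 KO ratios.

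**Figure D4:**
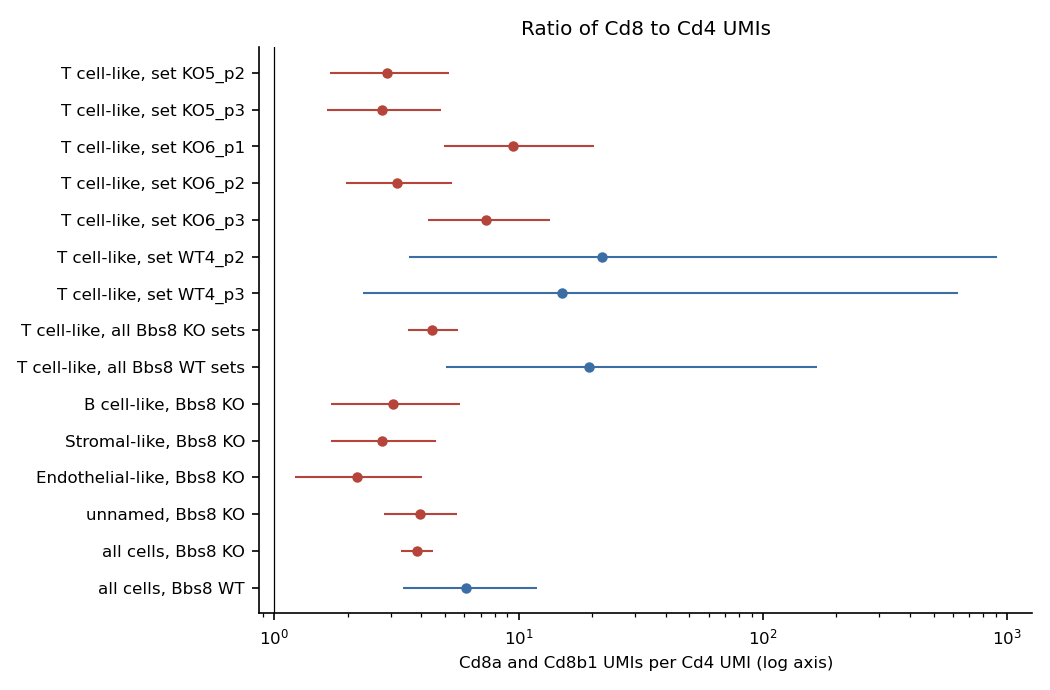
Ratio of Cd8a and Cd8b1 UMIs to Cd4 UMIs on a log axis with exact 95% intervals, by barcode set and by mouse in T cell-like cells, in 4 other classes of Bbs8 KO and over all cells (Bbs8 KO in red, Bbs8 WT in blue), without sets that had no Cd4 UMI. KO6_p1 and KO6_p3 lie to the right of the other Bbs8 KO sets, and the Bbs8 WT intervals are wide.

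The ratio also varied among the Bbs8 KO sets. KO6_p1, at 9.50 (4.95 to 20.4), did not overlap KO5_p3, at 2.76 (1.65 to 4.79), and KO6_p3 had 7.33 (4.26 to 13.5). The sets coded KO5 together had 113 Cd8 and 40 Cd4 UMIs, a ratio of 2.83 (1.95 to 4.16), and the sets coded KO6 had 278 and 48 UMIs, a ratio of 5.79 (4.25 to 8.04). These intervals did not overlap, while the intervals of the mice, 3.52 to 5.67 and 5.05 to 167, did overlap. Several UMIs can come from 1 cell, as with 95 Cd8 UMIs in 44 cells of KO6_p1, so all these intervals may be too narrow. A difference between the KO5 and KO6 sets is therefore not shown. Over all cells the ratio was 3.82 (3.29 to 4.45) in Bbs8 KO against 6.08 (3.36 to 11.9) in Bbs8 WT, and the intervals overlapped. In stromal-like, endothelial-like, pericyte-like and epithelial-like cells of Bbs8 KO combined it was 2.56 (1.80 to 3.69), and the T cell-like ratio was 1.74 times (1.12 to 2.68) as high. Monocyte-like (1.82), endothelial-like (2.17), stromal-like (2.75), B cell-like (3.06) and macrophage-like cells (3.33) of Bbs8 KO had lower ratios than T cell-like cells, and mitotic-like (8.25) and epithelial-like cells (4.50) had higher ones, with intervals that all overlapped that of T cell-like cells.

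Few single cells carried both coreceptors. In Bbs8 KO, 73 T cell-like cells had Cd4 without Cd8 (6.66%), 203 had Cd8a or Cd8b1 without Cd4 (18.5%), 5 had both (0.456%) and 815 had neither (74.4%). In Bbs8 WT, 2 cells had Cd4 alone (1.61%), 24 had Cd8 alone (19.4%), 98 had neither (79.0%) and 0 of 124 had a UMI of both, which allows up to 2.42% of cells with both UMIs and sets no limit on cells that express both. In stromal-like cells, taken as background, 1.03% (Bbs8 KO) and 0.574% (Bbs8 WT) had Cd4 alone and 2.89% and 0.43% had Cd8 alone, at the median depths given above. The Cd4 share of T cell-like cells of Bbs8 WT was not apart from its background (0.157 to 1.46%). The intervals of the share with Cd8 alone were 16.3 to 21.0% for Bbs8 KO against 12.8 to 27.4% for Bbs8 WT, and those of the share with Cd4 alone were 5.26 to 8.30% and 0.196 to 5.70%, so that both pairs overlapped. The share with neither was lower in deeper cells of Bbs8 KO, at 87.8% of cells with 121 to 189 UMIs and 59.6% of cells with 398 to 1865. Of the Bbs8 KO cells with a Cd8 UMI, 45 had both Cd8a and Cd8b1, 52 had Cd8a without Cd8b1 and 111 had Cd8b1 without Cd8a. The ratio of Cd8b1 to Cd8a UMIs was 1.75 in Bbs8 KO against 1.17 in Bbs8 WT, a ratio between the mice of 1.5 (0.728 to 3.07).

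The summed regulatory list was higher in cells with Cd4 than in cells with Cd8, and the effector, cytotoxic and natural killer list did not differ beyond counting error. In both mice together, 75 T cell-like cells had Cd4 alone and 227 had Cd8 alone, and most of both came from Bbs8 KO. The effector list was at 481 CPM in cells with Cd4 and 831 CPM in cells with Cd8, a ratio of 1.73 (0.993 to 3.22), and its genes went in both directions. Nkg7, a protein of cytotoxic granules, had 0 UMIs in cells with Cd4 and 49 in cells with Cd8, and the exact interval of the ratio began at 3.77. Prf1, the pore-forming perforin, had 0 and 21 UMIs, with an interval that began at 1.53. Ccl5, a chemokine of effector T cells, had 15 UMIs in cells with Cd4 and 5 in cells with Cd8, which is 0.0982 times as high in the latter (0.0279 to 0.284), and Gzma, Gzmb, Ncr1, Klrb1c and Zbtb16 had 0 UMIs in both. The regulatory T cell list was at 417 CPM in cells with Cd4 and 66.1 CPM in cells with Cd8 (0.159 times, 0.0536 to 0.428), from 13 and 7 UMIs. Of these, Ikzf2, which encodes Helios, had 5 and 3 UMIs, and Foxp3, which defines regulatory T cells, had 0 in both. The 8 genes of naive and recirculating T cells were at 4550 CPM in cells with Cd4 and 4490 CPM in cells with Cd8, a ratio of 0.987 (0.817 to 1.2). Nkg7, Prf1, Ccl5 and Ikzf2 were picked here after their values were seen.

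The ratio of the beta chain genes did not differ beyond counting error between the mice or between T cell-like and non-lymphoid cells. In T cell-like cells the ratio of Trbc1 to Trbc2 UMIs was 0.388 (0.344 to 0.436) in Bbs8 KO against 0.478 (0.274 to 0.811) in Bbs8 WT, and the ratio between the mice was 0.810 (0.470 to 1.43). By set it was 0.406, 0.401, 0.335, 0.309 and 0.492 in Bbs8 KO and 0.400 and 0.444 in the WT4 sets, with no more than 3 UMIs of either gene in any WT3 set. In stromal-like, endothelial-like, pericyte-like and epithelial-like cells of Bbs8 KO together (non-lymphoid cells) the ratio was 0.393, and T cell-like cells had 0.986 times that value (0.774 to 1.26). The ratio of Trac to the beta chains was 0.259 in T cell-like and 0.267 in non-lymphoid cells of Bbs8 KO (0.971 times, 0.766 to 1.24), and that of the coreceptors to the CD3 chains was 0.752 and 0.766 (0.982 times, 0.769 to 1.26). Of the 7 ratios compared in this way, those of Cd8 to Cd4 and of Cd3e to Cd3d had an interval that left out 1. The latter was 0.305 in T cell-like and 0.146 in non-lymphoid cells, from 18 Cd3e and 123 Cd3d UMIs, which is 2.08 times as high in T cell-like cells (1.19 to 3.82).

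Variable segments and the gamma-delta receptor were rarely counted. 12 of 14 variable segments in the table had a UMI in T cell-like cells, 87 UMIs in Bbs8 KO against 0 in Bbs8 WT, where a count of 0 allows 3. Trbv2 and Trbv13-2 had 17 UMIs each and Trbv19 had 10. Reads of the polyA end lie far from the variable part, so that few such UMIs are no measure of the repertoire. Trdc, the constant part of the delta chain, had 6 UMIs in Bbs8 KO and Tcrg-C1, of the gamma chain, had 1, and both had 0 in Bbs8 WT. 2 of the 8 names on the gamma-delta list were rows of the table.

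The kinases and adaptors that act next to the receptor were higher in Bbs8 KO over all cells, as the receptor genes were. All 18 genes of the T cell receptor signalling list were detected, and 14 of them were at least 2-fold higher in Bbs8 KO over all cells, beside 14.8% of all genes, with a median log2 difference of 1.66. In T cell-like cells, 7 of the 18 were at least 2-fold higher in Bbs8 KO, and the median was 0.71. The median of all genes with a UMI in this class was 0.61. It was 0.26 for genes with at least 20 UMIs and 0.15 for those with at least 200. As a share, 7 of 18 lies between the 43.8% of all genes and the 25.9% of genes with at least 20 UMIs that were at least 2-fold higher in this class. 3 of these 7 (Themis, Tespa1 and Trat1) had no UMI in Bbs8 WT, and with that 0 taken as 3 UMIs the median was 0.52 and 4 genes were at least 2-fold higher. Ptprc, the phosphatase CD45, had 1099 UMIs in Bbs8 KO against 41 in Bbs8 WT (log2 difference 1.14, 0.70 to 1.63). Lck, the kinase bound to the coreceptors, had 238 and 7 UMIs (1.47, 0.42 to 2.82), and Lat, the adaptor downstream of the receptor, had 261 and 15 UMIs (0.52, -0.23 to 1.38). Skap1, Lck, Cd2, Lat, Themis, Cd5 and Cd6 are also among the markers that named the class. Skap1 and Cd2, an adaptor and an adhesion receptor, had differences of 0.73 (-0.17 to 1.82) and 0.70 (-0.20 to 1.79).

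**Figure D5:**
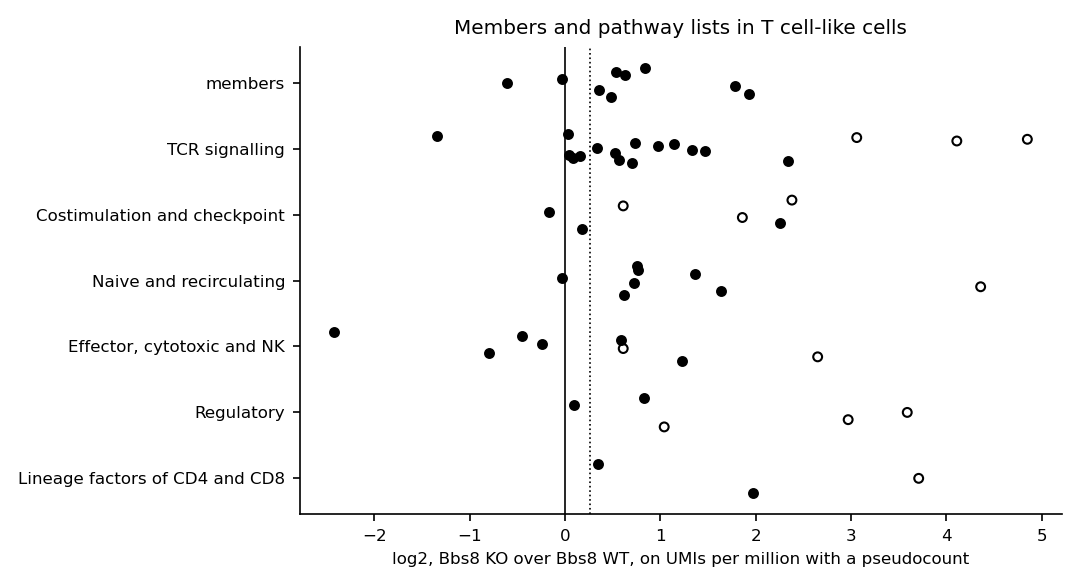
Difference of Bbs8 KO against Bbs8 WT in T cell-like cells on the log2 scale for the 9 genes (members) and for each gene with a UMI of 6 pathway lists, with open circles for genes without a UMI in Bbs8 WT, whose position depends on the pseudocount. The full line is 0 and the dotted line the median of genes with at least 20 UMIs in the class, 0.26, and Ubash3a (-1.34) and Zbtb16 (-2.42) lie farthest to the left in their lists.

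The summed level of naive and recirculating genes was higher in T cell-like cells of Bbs8 KO. The interval for effector genes held 0, and the intervals of both lists overlapped. The list of 8 naive genes summed to 4590 CPM in Bbs8 KO against 2360 CPM in Bbs8 WT (log2 difference 0.96, 0.62 to 1.31), and every Bbs8 KO set was above every Bbs8 WT set. Of the 8 genes, 3 were at least 2-fold higher, beside 43.8% of all genes and 25.9% of those with at least 20 UMIs. The 15 T cell markers together had a difference of 0.81 (0.56 to 1.07), which overlapped that of the naive list. Il7r, the receptor for interleukin 7, had 382 and 10 UMIs (1.64, 0.76 to 2.73), and Tcf7, a transcription factor of naive T cells, had 328 and 16 UMIs (0.75, 0.04 to 1.58). Satb1 and Lef1, both nuclear factors of T cell development, had differences of 1.36 (0.43 to 2.51) and 0.72 (-0.10 to 1.70). Il7r, Tcf7 and Satb1 are also among the markers that named the class. The effector, cytotoxic and natural killer list summed to 484 CPM in Bbs8 KO against 478 CPM in Bbs8 WT (0.02, -0.74 to 0.88), with Nkg7 at 74 and 4 UMIs, Prf1 at 35 and 4, Ccl5 at 31 and 1, Gzma at 20 and 3 and Klrd1 at 10 and 1.

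The remaining lists had few UMIs. T cell-like cells held 380054 UMIs in Bbs8 KO against 31364 in Bbs8 WT, so the counts given here are not levels and cannot be compared directly. Of the costimulation and checkpoint genes, Cd27 had 69 and 5 UMIs, Cd28 had 65 and 1 and Icos had 32 and 3, Tnfrsf4 had 8 and 0 and Ctla4 had 5 and 0, and Lag3 and Tigit had none. Foxp3 had 2 UMIs in Bbs8 KO against 0 in Bbs8 WT, and the regulatory list as a whole had 72 and 2. Its other genes were Tnfrsf18 with 23 and 1 UMIs, Ikzf2 with 21 and 0, Il2ra with 13 and 1 and Gata3 with 13 and 0. The factors that steer T cells to either coreceptor were counted in Bbs8 KO, with 16 UMIs of Zbtb7b, needed for the CD4 lineage, 53 of Runx3, needed for the CD8 lineage, and 23 of Tox, while Bbs8 WT had 1, 1 and 0. Among genes of other cells that carry Cd4 or Cd8a, Xcr1 and Clec9a, which define the CD8a-bearing dendritic cells, had no UMI in T cell-like cells, and Siglech, of plasmacytoid dendritic cells, had 10 UMIs in Bbs8 KO against 0 in Bbs8 WT. The genes with the most UMIs on that list were Ccr9 with 22 and 0, Tcf4 with 21 and 1, Irf8 with 18 and 1 and Bst2 with 15 and 2.

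The genes whose pattern over classes and genotypes was most like that of the 9 genes were found by correlation. Over 20 values, from 10 classes in each mouse, and among 3650 genes with at least 200 UMIs, Bcl11b had the highest Pearson correlation of the log2 levels with the summed 9 genes (0.906), followed by Gimap3 (0.862), Cyfip2 (0.834), Lat (0.832) and Spn (0.831). Bcl11b and Lat were among the markers that named the class. The 20 values share libraries and the class sizes differ widely, so the correlations are descriptions only. Among themselves the 9 genes had correlations from 0.588 to 0.966 over the same values.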

How the data were processed

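Inguinal white adipose tissue SVF of 1 Bbs8 KO and 1 Bbs8 WT mouse was profiled with Seq-Well S3. The deposited values are raw UMI counts per gene and cell, which the authors made with dropSeqPipe (bcl2fastq 2.20, STAR) on mm10, keeping cells with 100 to 1000 genes and at most 20% mitochondrial UMIs. The study's methods name downsampling, and whether it preceded deposit is not stated. The table held cells with 101 to 994 genes, and 0 columns were left unmapped. Cells were grouped by the genotype in the column names.

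Cells were clustered with Seurat 5.3.0 in R 4.3.3 (2000 features, 30 dimensions, resolution 0.8, anchor integration of barcode sets) without the 9 genes. A cluster was named when its markers had a mean log2 fold of at least 0.5 and at least 3 of them were over it. Scrublet, run in scanpy 1.11.5, marked 0.229% of cells and did not work, so doublets were kept. Of 103 cells whose barcode occurs in more than 1 set, 1 was in the T cell-like class, in Bbs8 WT. Summed counts were divided by the total UMIs of the same cells, and log2 differences carry a pseudocount of 5 CPM, while intervals are those of the plain ratio (exact Poisson, Clopper-Pearson and conditional intervals, 95%, scipy 1.17.1). A count of 0 allows 3 UMIs. Scripts were tested on simulated data. The named genes are the 9 genes, the 5 genes with the most UMIs in T cell-like cells of each pathway list, and the 5 genes most like the 9 by correlation, of which 1 pathway gene is not reported here. Others are named where they define a cell type or a count of 5 or fewer calls for it, and were chosen after their values were seen. The genes and lists were chosen with earlier results of these data known. Alternatives covered the clustering, T cell calls, depth, doublets, scaling with edgeR 4.0.16 and DESeq2 1.42.0, pseudocounts and left-out sets.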

Additional observations from a re-analysis of the deposited data

Results flagged for a closer look

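In 63 groups of 5 barcode sets, 4 held a set far from the other sets of its genotype, and chance alone flags about 1 in 20 such groups. Cd3e was at 13.2 CPM over all cells and at 113 CPM in T cell-like cells of WT4_p2, while no other set of Bbs8 WT had a Cd3e UMI. Counts of 0 in those sets allow 21.6 to 43.5 CPM over all cells and 360 to 3220 CPM in T cell-like cells, so WT4_p2 is not shown to differ from them. Cd3g in T cell-like cells was at 702 CPM in KO6_p2, and the other Bbs8 KO sets had 515 to 553 CPM. The share of T cell-like cells was 7.78% in KO6_p1, and the other Bbs8 KO sets had 12.4 to 14.2%.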

How the results depend on the processing

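Of 551 values under another setting, 492 stayed within the interval or spread of the reported value, 59 moved beyond it, and 0 of those whose interval left out 0 changed direction. In T cell-like cells, 4 genes whose intervals held 0 did change sign. Cd8b1 (-0.03) was at 0.35 with TMM, 0.32 with DESeq2 factors, 0.10 without integration, 0.13 with T cells called from marker UMIs, 0.40 with at least 200 genes per cell, and 0.04, 0.07 and 0.21 without KO5_p2, KO6_p2 and WT4_p3. Cd8a (-0.61) was at 0.14 with at least 200 genes per cell, Cd3d (0.48) at -0.21 with T cells called from marker UMIs, and Cd3g (0.36) at -0.21 without WT4_p2. The share of T cell-like cells was higher in Bbs8 KO in 19 of 19 settings, and the ratio of Cd8 to Cd4 UMIs was lower in 18 of 18. In the count of 18, the reported Bbs8 WT ratio stood in where that setting gave none, as with at least 200 genes per cell. It also stood in where a Bbs8 KO set was left out, so the same 2 Cd4 UMIs recur in it. The cause of the moves was not tested. With the 9 genes kept in the clustering, T cell-like cells were 13.9% of Bbs8 KO, they held 52.9% (Bbs8 KO) and 43.8% (Bbs8 WT) of the UMIs, and 70.1% of those of Bbs8 WT had a UMI. Without integration, these cells held 47.6% of the Bbs8 KO UMIs, were 4.98% of Bbs8 WT, and 72.9% of them had a UMI. Called from marker UMIs, T cells were 9.13% and 2.38%, held 39.3% and 23.1% of the UMIs, and 80.4% and 76.1% had one. With at least 200 genes per cell, the summed log2 difference in T cell-like cells was 1.05, the shares were 13.6% and 4.39%, the UMIs held 54.7% and 31.3%, 93.2% of Bbs8 KO cells had a UMI, and the Bbs8 WT ratio of Trbc1 to Trbc2 was 0.136, with no Cd4 UMI left in Bbs8 WT. Without cells of high doublet score, T cell-like cells held 48.0% of the Bbs8 KO UMIs. Summed log2 differences over all cells and in T cell-like cells were 1.53 and 0.91 with TMM, and 1.51 and 0.88 with DESeq2 factors. The lowest summed difference in T cell-like cells was 0.35, with T cells called from marker UMIs. Thinned to 200 UMIs, 71.4% of Bbs8 KO cells had a UMI.

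Alternatives chosen after seeing the data follow. Without the WT3 sets, the summed difference was 1.27 over all cells and 0.38 in T cell-like cells, and the Bbs8 WT share was 9.02%. Without the unnamed cluster led by KO6_p1, the Bbs8 KO share was 13.5% and 49.7% of the UMIs were held. With that cluster counted as T cell-like, the shares were 22.1% and 7.98%, 53.8% of the Bbs8 KO UMIs were held and 55.9% of the cells had a UMI.

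With each set left out in turn, the summed difference ran from 1.56 to 2.22 over all cells (2.22 without WT4_p2) and from 0.45 to 0.79 in T cell-like cells (0.79 without WT4_p3). The share of T cell-like cells ran from 11.8 to 13.5% in Bbs8 KO and from 4.65 to 7.28% in Bbs8 WT, the UMIs they held from 44.7 to 47.9% and from 29.0 to 43.1%, and the cells with a UMI from 74.4 to 78.1% and from 54.8 to 63.4%. The ratio of Cd8 to Cd4 ran from 3.79 to 4.97 and from 17.0 to 24, and that of Trbc1 to Trbc2 from 0.364 to 0.408 and from 0.432 to 0.571. No paired analysis was possible because single sets cannot be matched to the labelled replicate numbers and no test was run. With 1 mouse per genotype, no difference has a replicate check, and the 124 T cell-like cells of Bbs8 WT limit every value in that class.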
